A study of Homo sapiens with 2 samples.

Results

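Mediator is the large protein complex that carries signals from DNA-bound transcription factors to RNA polymerase II. Its members were taken here by name as the MED genes together with CDK8, CDK19 and CCNC, 33 genes in all. Of these, 31 were measured, among 19775 genes with a probe set that names 1 gene; MED6 and MED25 were not analysed here. The study compared MKN28 gastric cancer cells that overexpress Sox2 with MKN28 control cells, 1 Affymetrix array for each. Per the labels' protocols, the Sox2 cells carry a lentiviral Sox2 construct with a puromycin resistance and were selected in puromycin at 2 μg/mL for 3 to 5 days. The labels do not say what the control cells, titled NC, received, nor whether either culture grew from a single clone, and both were grown in RPMI1640 with serum. With 1 array per group there is no replicate error and no test, and the group and the array cannot be told apart.

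In the cell, a core of head, middle and tail modules, held together by the scaffold subunit MED14, contacts the polymerase and the transcription factors. A separable kinase module, made of CDK8 or its paralog CDK19, cyclin C (CCNC), MED12 or MED12L, and MED13 or MED13L, docks on the core through MED13 and hinders its binding to the polymerase. CDK8 is amplified and overexpressed in a share of colorectal cancers, where it supports transcription driven by beta-catenin.

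Of the whole complex, CDK8 stood apart. It read 256 in the Sox2-labelled array and 81.6 in the control-labelled array, a 3.14-fold higher intensity, and its other probe sets were also far higher. Neither its paralog CDK19 nor its cyclin CCNC, both of them dim, differed in that way. No other Mediator gene reached 2-fold by the probe set used. The nearest were the core subunits MED17 and MED10, higher by less than 2-fold, and MED30, lower by less than 2-fold.

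The intensities are linear values with 1 number per probe set, a group of short probes that reads a stretch of a transcript. Every log2 difference, given in parentheses after the intensities it comes from, is the log2 value of the Sox2-labelled array minus that of the control-labelled array. A gene's value came from whichever of its probe sets had the highest mean log2 intensity, so measured levels chose the probe set but not the gene. Probe sets bind with different strength, so levels of different genes are not compared. Where a gene was required to pass a filter, the higher of its values had to reach the median of all values, 34.25. The median intensities were 34.25 and 34.26 in the Sox2-labelled and control-labelled arrays, and the median log2 difference of the 14253 genes past the filter was -0.0032. The poly-A spike-ins, which are bacterial RNAs put in before labelling, differed by a median of -0.75 over 24 probe sets, and scaling the arrays on them would raise every difference by that amount. From 3471 genes with a pair of probe sets past the filter, the technical SD of the difference of 1 probe set was 0.28, a spread that leaves out variation between cultures and arrays.

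SOX2 did not check the labels clearly. Its probe sets read 172 and 123, 38.4 and 39.1, 27.4 and 22.2, and 11.4 and 15.7 in the Sox2-labelled and control-labelled arrays, with log2 differences of 0.49, -0.023, 0.31 and -0.46. The arrays are therefore called by their labels, and every direction rests on those labels. Of the epithelial markers, only EPCAM was under the filter, at 4.96 in the Sox2-labelled array and 6.32 in the control-labelled one. CDH1 read 78.6 and 91.3 in the Sox2-labelled and control-labelled arrays, KRT18 70.1 and 88.5, and CDH17 50.6 and 50.9. In the same order KRT8 read 50.25 and 44.6, KRT19 40.6 and 37.7, and CLDN18 42.2 and 42.2. The summed intensity of 7 epithelial markers was 337 in the Sox2-labelled array and 362 in the other, and that of 7 leukocyte, endothelial and fibroblast markers was 1298 and 1250. Of each list, 6 passed the filter, so the filter did not tell the lists apart. COL1A1, a fibroblast collagen, read 557 in the Sox2-labelled array and 576 in the control-labelled one. COL3A1, another, read 418 in the Sox2-labelled array and 374 in the control-labelled one. These collagens were the brightest of their list and lead its sum. PTPRC, a leukocyte marker, was under the filter at 24.6 in the Sox2-labelled array and 27.5 in the control-labelled one. In the same order CD3E read 82.0 and 71.4, PECAM1 72.4 and 76.1, VWF 75.2 and 70.4, and DCN 68.6 and 54.1. The part of these markers in any result was not tested, and a change in the cells present and a change in RNA per cell cannot be told apart in such samples.

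**Figure D1:**
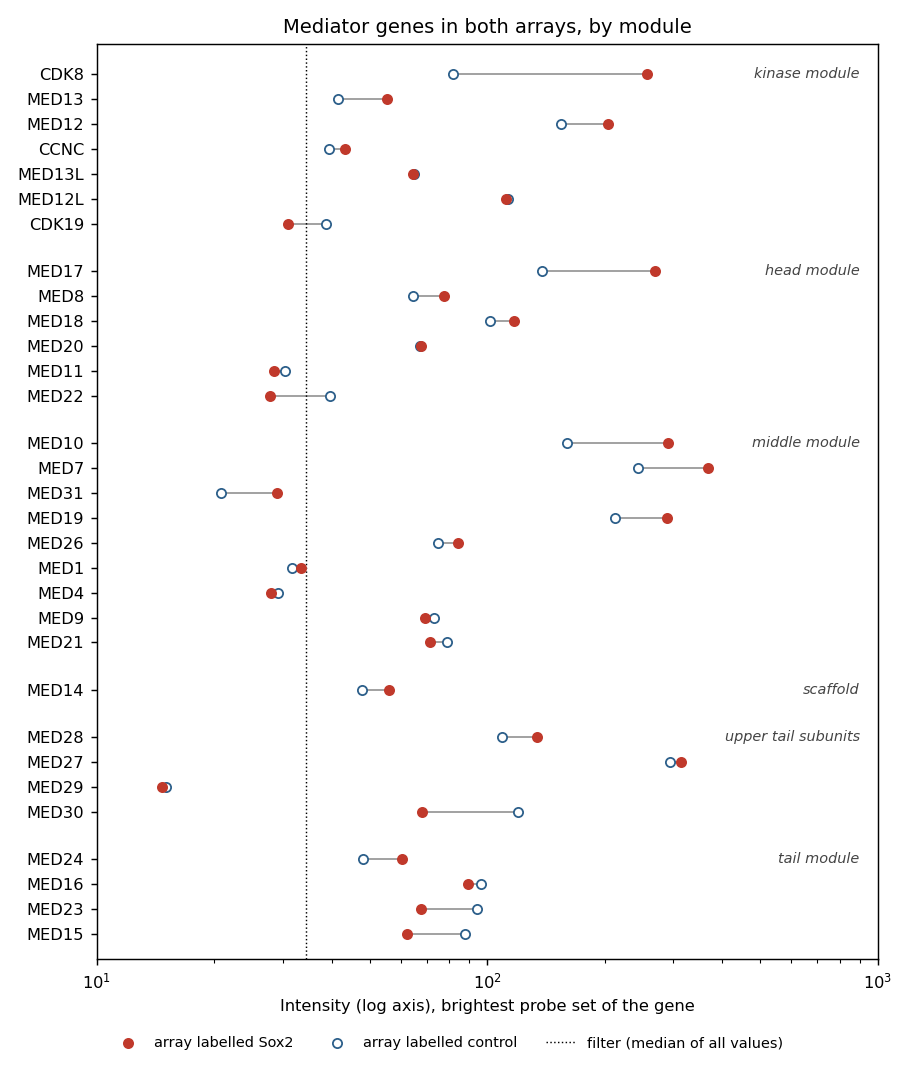
Intensity of each of the 31 measured Mediator genes by its brightest probe set (log axis), grouped by module; filled points are the Sox2-labelled array, open points the control-labelled array, and the dotted line is the filter at 34.25. CDK8 has the widest gap, 256 against 81.6, while MED20, MED13L and MED12L have overlapping points.

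The filter kept 26 of the 31 genes. The members left out were MED1, MED4, MED11, MED29 and MED31, of which MED1 came closest, with a higher value of 33.3. The dimmest members kept were CDK19, with a higher value of 38.7, and MED22, with 39.5, and both passed through the control-labelled array alone. CDK8 was the 1 of 26 (3.85%) at least 2-fold higher in the Sox2-labelled array, against 2.05% of all genes past the filter. None was at least 2-fold lower, against 0.645% of all genes. With 26 members, shares this small are not a result about the complex. The median log2 difference was 0.16 over the 26 members and 0.14 without CDK8. It depended on the probe set, at 0.032 when probe sets were averaged and 0.27 by the one with the largest difference. Above 0 were 16 of 26 members (61.5%), against 49.6% of all genes past the filter. The differences had a robust SD of 0.38 over the members and 0.28 over all genes.

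CDK8, the cyclin-dependent kinase that gives the module its name, was read by 3 probe sets. The brightest gave 256 in the Sox2-labelled array and 81.6 in the other, the next 123 and 36.1, and the dimmest, under the filter, 19.1 and 7.17. The log2 differences were 1.65, 1.77 and 1.41, or 3.14-, 3.41- and 2.66-fold. Only the first was used to choose the gene's value, and the other probe sets stand beside it as separate readings of the same RNA, not as replicates. Across the whole array, 5508 genes had at least 3 probe sets, and in 3 of them (0.0545%) every probe set was at least 2-fold higher in the Sox2-labelled array. These were CDK8, G3BP2 and RBMS1, counted after the CDK8 values were known. By its brightest probe set CDK8 ranked 10 from the top among 14253 genes. Genes were also split into 10 bins of equal size by mean level. In the bin of CDK8, 45 of 1425 genes (3.16%) were at least 2-fold higher and 4, CDK8 included, differed by as much.

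CDK19, the paralog that can take the place of CDK8, was dim. Its probe sets read 30.9 and 38.7, 17.3 and 20.1, 10.2 and 8.74, and 2.07 and 4.39 in the Sox2-labelled and control-labelled arrays. Of these, only the first passed the filter, with a log2 difference of -0.32, and the others differed by -0.21, 0.22 and -1.08. The CDK19 probe sets therefore gave no reading near that of CDK8, though at such levels a change could go unseen. CCNC, the cyclin that binds and activates either kinase, read 43.4 and 39.2 in the Sox2-labelled and control-labelled arrays by the brighter of its probe sets (0.14) and 8.73 and 14.6, under the filter, by the other (-0.74). Those probe sets disagreed in direction, and at such levels a change in CCNC could go unseen as well.

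MED12, which binds cyclin C and activates the kinase, was the kinase module gene besides CDK8 whose probe sets all lay above 0. Its 4 probe sets, all past the filter, read 204 and 154, 180 and 122, 145 and 94.2, and 51.5 and 46.8 in the Sox2-labelled and control-labelled arrays. The log2 differences were 0.41, 0.57, 0.62 and 0.14. Its paralog MED12L read 112 and 113 in the Sox2-labelled and control-labelled arrays (-0.013) by the brighter probe set and 17.1 and 16.2 (0.077) by the dimmer. The largest difference was 1.54-fold among the 4 MED12 probe sets and 1.05-fold among the fewer of MED12L. The lowest MED12 reading, 0.14, was nearer to those of MED12L, and whether the paralogs differ was not tested.

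MED13, the subunit through which the kinase module docks, read 55.4 and 41.4 in the Sox2-labelled and control-labelled arrays (0.42) and 53.3 and 31.7 (0.75) by the probe sets past the filter. By the dimmer ones it read 17.7 and 18.5 in the Sox2-labelled and control-labelled arrays (-0.066) and 6.76 and 9.25 (-0.45). Its brighter readings were higher in the Sox2-labelled array and its dimmer ones were not. MED13L, its paralog, read 64.7 and 65.0 in the Sox2-labelled and control-labelled arrays (-0.0071) by the brightest probe set and 42.4 and 25.8 (0.72) by the next, which also passed the filter. Under the filter it read 29.98 and 18.8 in the Sox2-labelled and control-labelled arrays (0.67), 3.74 and 4.32 (-0.21) and 3.18 and 7.14 (-1.17). For MED13L the difference thus depended on the probe set, and the brightest gave none. Over the 7 kinase module genes the median log2 difference was 0.14, and over the 6 others without CDK8 it was 0.068.

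**Figure D2:**
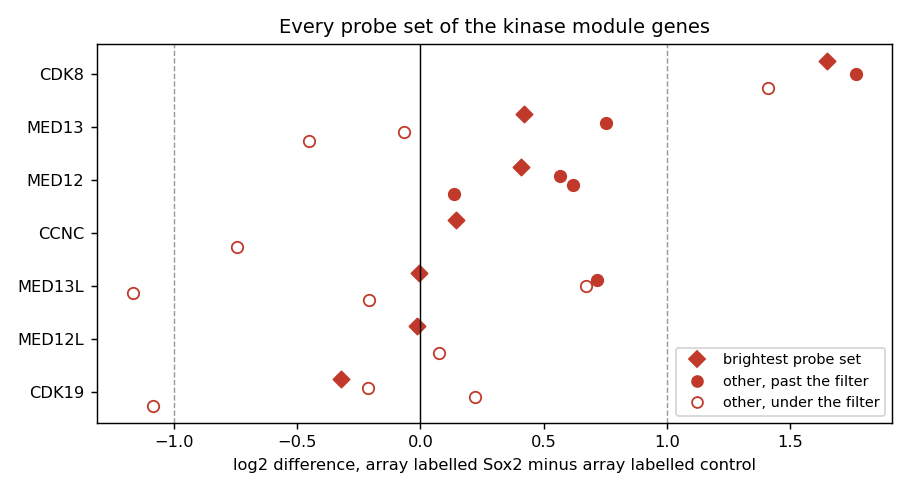
log2 difference (Sox2-labelled array minus control-labelled array) of all 24 probe sets of the kinase module genes; diamonds are the brightest probe set of each gene, filled circles other probe sets past the filter, open circles those under it, and dashed lines mark 2-fold. The 3 CDK8 probe sets lie at 1.41 to 1.77, and no probe set of another gene in the module reaches 2-fold higher.

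Genes next to CDK8 on chromosome 13 gave a mixed reading. The 5 nearest protein-coding genes with a probe set on each side, in the order of RefSeq (GRCh38.p14), were looked at after the CDK8 values were known. Past the filter were 6 of the 10, with log2 differences from -0.71 to 1.11 and a median of -0.33. NUP58, a nucleoporin, was the 1 at least 2-fold higher, at 64.1 in the Sox2-labelled array and 29.7 in the other. Its other probe set past the filter read 42.2 in the Sox2-labelled array and 39.8 in the control-labelled one (0.083). RNF6, the closest on one side, was under the filter at 10.2 in the Sox2-labelled array and 7.71 in the control-labelled one. Its further probe sets, dimmer still, went the other way (-1.02 and -0.58). WASF3, the closest on the other side, was also under the filter at 16.5 in the Sox2-labelled array and 19.7 in the control-labelled one. USP12, a deubiquitinase, read 193 in the Sox2-labelled array and 243 in the control-labelled one (-0.33). GTF3A, a transcription factor of RNA polymerase III, gave the lowest difference at 40.8 in the Sox2-labelled array and 66.6 in the control-labelled one (-0.71), but another of its probe sets past the filter gave 0.30. By the brightest probe sets, 5 of the 6 lay below 0. These counts depend on the filter. NUP58 passed it through the Sox2-labelled array alone. ATP8A2, at 29.6 in the Sox2-labelled array and 41.8 in the other, passed through the control-labelled array alone, as did GPR12 (29.45 and 36.8). Of the neighbours under the filter, MTMR6 (0.23), SHISA2 (0.54) and RNF6 (0.41) lay above 0 by the brightest probe sets and WASF3 (-0.26) below. CDK8 is a long gene, of 151110 bases. A band of 100000 to 200000 bases was set around its length, after the CDK8 values were known. Of 1408 genes in that band, 68 (4.83%) were at least 2-fold higher and 2, CDK8 included, differed by as much as CDK8.

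**Figure D3:**
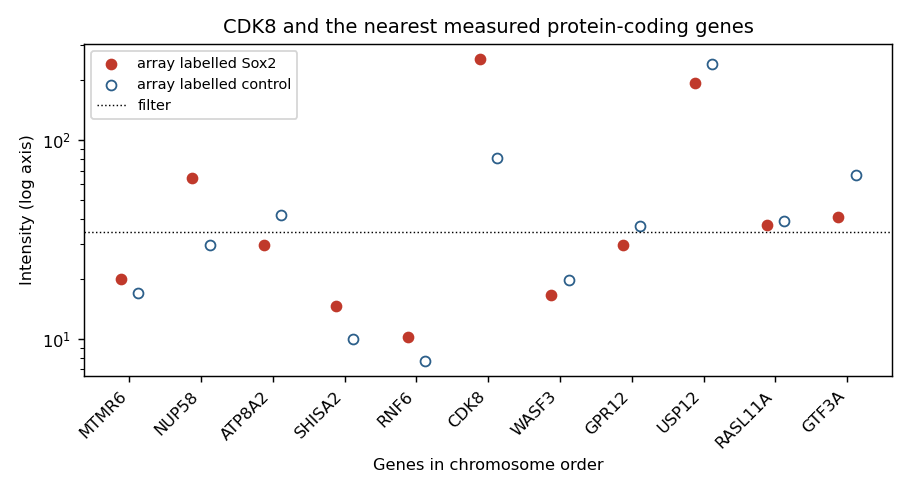
Intensity (log axis) of CDK8 and of the 5 nearest measured protein-coding genes on each side, in chromosome order with equal spacing; filled points are the Sox2-labelled array, open points the control-labelled array, and the dotted line is the filter. Beside CDK8, only NUP58 among the neighbours past the filter is higher in the Sox2-labelled array.

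The head module contacts the polymerase and its initiation factors. MED17, its central subunit, came closest to CDK8 in the size of its difference. It read 269 in the Sox2-labelled array and 138 in the control-labelled array by its brightest probe set, a log2 difference of 0.96. The other MED17 probe sets went the other way, at 47.7 and 56.2 in the Sox2-labelled and control-labelled arrays (-0.24) and, under the filter, 27.0 and 28.5 (-0.081). Among the 1425 genes of its level bin, 50 (3.51%) differed upward by as much. MED22, which pairs with MED11, had the lowest difference in the head, with 27.8 in the Sox2-labelled array and 39.5 in the control-labelled one (-0.51) by its only probe set. MED8, which anchors the movable jaw, read 77.6 in the Sox2-labelled array and 64.4 in the control-labelled one (0.27), but its other probe sets past the filter gave 0.012 and -0.21, so its direction turned with the probe set. Of the jaw subunits, MED18 read 117 in the Sox2-labelled array and 101 in the control-labelled one (0.21). MED20, its partner, read 67.7 in the Sox2-labelled array and 67.4 in the control-labelled one (0.0060). Of the 5 head genes past the filter, 4 lay above 0, with a median of 0.21. MED11, under the filter, read 28.4 in the Sox2-labelled array and 30.4 in the control-labelled one.

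The middle module relays contacts between the head and the tail. MED10 read 291 in the Sox2-labelled array and 160 in the other (0.86) by its only probe set. MED7, which forms the hinge of the module with MED21, read 368 in the Sox2-labelled array and 243 in the control-labelled one (0.60). Both lie in the brightest bin of genes, where the differences spread widely, with a robust SD of 0.59. In that bin 232 of 1426 genes (16.3%) differed upward by as much as MED10, and 368 (25.8%) by as much as MED7. The other MED7 probe sets read 89.7 and 83.2 in the Sox2-labelled and control-labelled arrays (0.11) and, under the filter, 2.43 and 2.58 (-0.086), so the larger reading rests on 1 probe set.

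MED19, which can bind the repressor REST, was read alike by its probe sets, at 288 and 213 in the Sox2-labelled and control-labelled arrays (0.44) and 83.5 and 60.1 (0.47). By its brighter probe set MED19 lies between MED10 and MED7 in mean level, in the same bin with a robust SD of 0.59. After quantile normalization its difference was 0.30. MED26, which brings elongation factors to the polymerase, read 84.1 in the Sox2-labelled array and 74.8 in the control-labelled one (0.17). MED9 read 69.5 in the Sox2-labelled array and 73.2 in the control-labelled one (-0.075). MED21 had the lowest difference in the middle module, at 71.5 in the Sox2-labelled array and 79.0 in the control-labelled one (-0.14). Of the 6 middle module genes past the filter, 4 lay above 0, with a median of 0.30. Under the filter, MED4 read 28.0 in the Sox2-labelled array and 29.2 in the control-labelled one. MED31, also under it, read 28.9 in the Sox2-labelled array and 20.8 in the control-labelled one. MED1, the subunit that binds nuclear receptors, read 33.3 in the Sox2-labelled array and 31.6 in the control-labelled one. All 4 MED1 probe sets differed by little, from 0.058 to 0.30.

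MED14, the backbone that joins head, middle and tail, had 5 probe sets and all lay above 0. The pair past the filter read 56.2 and 47.9 in the Sox2-labelled and control-labelled arrays (0.23) and 36.6 and 29.4 (0.32). The direction was shared by every MED14 reading, but none of those past the filter was far from the technical SD.

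The tail module is the main landing site of transcription factors, and among modules with several genes past the filter it had the lowest median, -0.29 over 4 genes. MED15, a target of SREBP and SMAD factors, read 62.1 in the Sox2-labelled array and 87.6 in the control-labelled array (-0.50). MED23, which binds the growth factor-responsive ELK1, read 67.6 in the Sox2-labelled array and 94.1 in the control-labelled one (-0.48), with further probe sets past the filter at -0.18 and -0.36. MED16 read 89.4 in the Sox2-labelled array and 96.7 in the control-labelled one (-0.11), with other probe sets past the filter at -0.15, 0.12 and -0.47. MED24 alone lay above 0, at 60.5 in the Sox2-labelled array and 48.1 in the control-labelled one (0.33). None of the 4 reached 1.5-fold.

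MED27, MED28, MED29 and MED30 lie between head and tail and are assigned to either. MED30, a subunit of animal Mediator, was the lowest member of the complex, at 68.0 in the Sox2-labelled array and 120 in the control-labelled array (-0.82). The next probe set, also past the filter, read 67.0 and 95.2 in the Sox2-labelled and control-labelled arrays (-0.51), and the one under it 9.35 and 9.81 (-0.069). In its level bin, 9 of 1425 genes (0.632%), MED30 included, differed downward by as much. MED28, which also binds the actin-linked protein merlin, read 134 and 109 in the Sox2-labelled and control-labelled arrays (0.30) by its brightest probe set but 94.8 and 123 (-0.38) by the next. MED27 read 314 in the Sox2-labelled array and 294 in the control-labelled one (0.098), with other probe sets past the filter at -0.22 and 0.016. Its sign turned under averaging of probe sets (-0.035) and under quantile normalization (-0.070). MED29 was far under the filter at 14.7 in the Sox2-labelled array and 15.1 in the control-labelled one.

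Probe sets of a gene often disagreed. Of the 24 Mediator genes with several probe sets, 9 (37.5%) had all of them on the same side of 0, against 34.2% of 10523 genes on the array, a share near the background. These were CDK8, MED1, MED12, MED14, MED18 and MED19 above 0, and MED4, MED21 and MED30 below. At 1.5-fold, 4 of 26 genes (15.4%) were counted as higher, against 6.46% of all genes past the filter. They were CDK8, MED17, MED10 and MED7. The share of all genes is not matched for level, and MED10 and MED7 lie in the brightest bin, where 10.8% were at least 2-fold higher. MED7 fell under 1.5-fold after quantile normalization (0.41), and the other MED17 probe set past the filter gave -0.24. MED30 was the 1 counted as lower (3.85%), against 3.77% of all genes. At the level of probe sets, 2 of the 50 past the filter were at least 2-fold higher, both of CDK8, against 1.97% of all such probe sets, and none was at least 2-fold lower, against 0.523%.

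**Figure D4:**
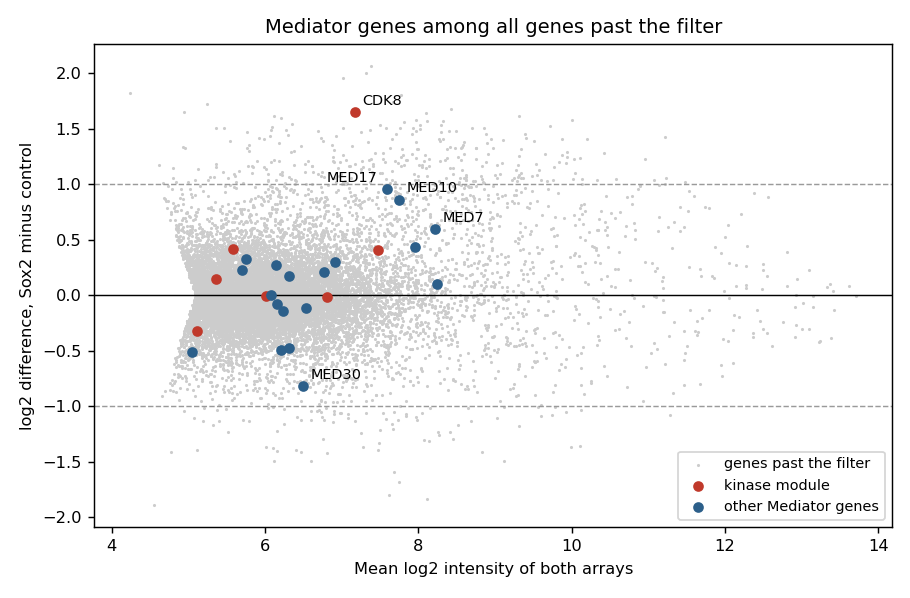
log2 difference (Sox2-labelled array minus control-labelled array) against the mean log2 intensity of both arrays for the 14253 genes past the filter in grey, with the 7 kinase module genes in red and the 19 other Mediator genes in blue; dashed lines mark 2-fold. CDK8 lies at 1.65, and the differences of all genes widen toward bright levels, where MED10 and MED7 lie.

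Across the array long genes tended to read higher in the Sox2-labelled array, with a Spearman rho of 0.15 between genomic length and log2 difference over 14232 genes. Within Mediator the order ran weakly the other way, with a rho of -0.18 over 26 genes that share these same arrays. The longest members, of over 200000 bases, were MED12L (-0.013), MED13L (-0.0071), MED27 (0.098) and CDK19 (-0.32). The next in length lay above 0, CDK8 at 151110 bases (1.65), MED13 at 122674 (0.42) and MED14 at 87855 (0.23). MED15, after them, lay below 0 at 80010 bases (-0.50). Short members also lay on both sides of 0, as MED7 (0.60) and MED22 (-0.51) did.

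Other parts of the transcription machinery were read for comparison from lists chosen with earlier results of these data known. Of all genes past the filter, 49.6% lay above 0, 2.05% were at least 2-fold higher and 3.77% at least 1.5-fold lower. Of 12 RNA polymerase II subunits, 11 lay below 0, with a median of -0.21, but none was at least 2-fold lower and 2 were at least 1.5-fold lower. POLR2B, the subunit that forms the active site with the largest one, was the 1 above 0, at 256 in the Sox2-labelled array and 109 in the control-labelled array (2.34-fold). All 10 genes of cohesin and its loader lay above 0, with a median of 0.37. Of these, WAPL, which releases cohesin from DNA, read 780 in the Sox2-labelled array and 274 in the control-labelled one (2.85-fold), while its other probe sets past the filter gave 0.86 and 0.39. STAG1, a cohesin subunit, read 138 in the Sox2-labelled array and 60.8 in the control-labelled one (2.27-fold). The median genomic length was 7842 bases for the polymerase list, 114317 for cohesin and 25827 for Mediator, against 24443 for all genes past the filter with a length. With the trend of the difference with length removed, Mediator's median was 0.15; the part of length in the other medians was not tested.

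Elongation factors lay mostly above 0, in 18 of 20 genes with a median of 0.23. Among them AFF4, the scaffold of the super elongation complex, read 227 and 103 in the Sox2-labelled and control-labelled arrays (2.21-fold), but further probe sets past the filter gave -0.53, 0.33 and 0.0061. SUPT16H, a histone chaperone of the FACT complex, read 224 in the Sox2-labelled array and 104 in the control-labelled one (2.16-fold). The other transcriptional kinases and their cyclins had a median of 0.072 over 12 genes. CCNL1, a cyclin of the CDK11 kinases, was the 1 at least 2-fold higher, at 779 in the Sox2-labelled array and 346 in the control-labelled one (2.25-fold). No kinase of that list reached 2-fold.

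General transcription factors had a median of 0.015 over 19 genes. GTF2F1, the large subunit of TFIIF, read 233 in the Sox2-labelled array and 104 in the control-labelled one (2.23-fold), with other probe sets at 1.21 and -0.22. The SAGA and acetyltransferase list had a median of 0.16 over 11 genes. In it SUPT20H, a SAGA subunit, read 184 in the Sox2-labelled array and 91.0 in the control-labelled one (2.02-fold), with other probe sets past the filter at 1.07, 0.98, 0.78 and -0.27. In none of the 6 lists was a gene at least 2-fold lower, against 0.645% of all genes past the filter. With lists this small, that is not a result about them. Mediator's median of 0.16, which was 0.032 with averaged probe sets, lay within the range of the 6 list medians, from -0.21 to 0.37. Those list medians were not read with averaged probe sets, and whether Mediator differs from any of the lists was not tested.

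**Figure D5:**
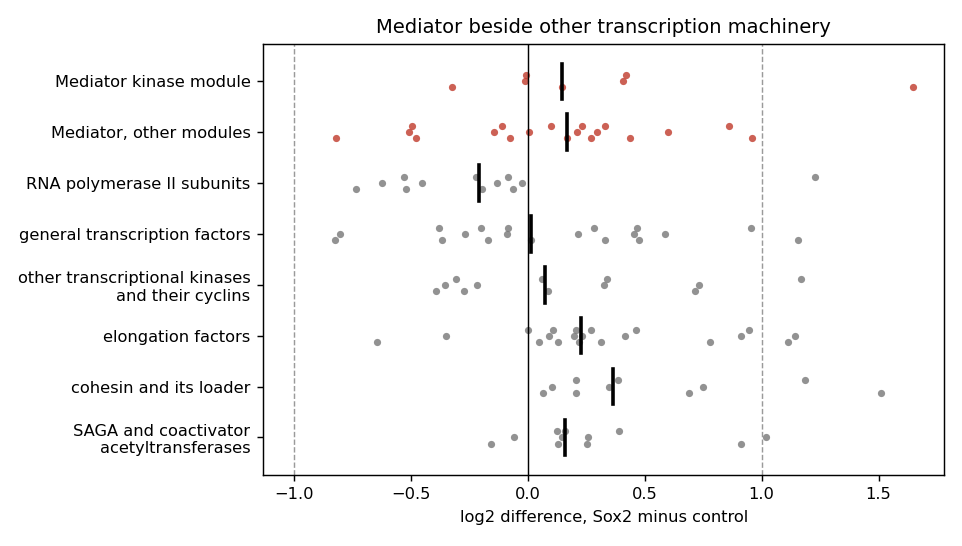
log2 difference (Sox2-labelled array minus control-labelled array) of each gene past the filter, for the Mediator kinase module, the other Mediator modules and 6 lists of other transcription machinery; black bars are medians and dashed lines mark 2-fold. CDK8, at 1.65, is the rightmost point, the polymerase subunits have a median of -0.21 and the cohesin genes one of 0.37.

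The promoter letters of the genes with the largest upward readings are given beside the promoter of CDK19, as the paralog that was not read higher. Each is the 250 bases before the annotated start in RefSeq, the one listed first where there are several, build GRCh38.p14, written 5′ to 3′ on the strand of the gene, with any of the motifs searched in capitals. The regions are chr13:26253879-26254128 (plus strand) for CDK8, chr6:110815856-110816105 (minus strand) for CDK19, chr11:93784032-93784281 (plus strand) for MED17 and chr5:6378548-6378797 (minus strand) for MED10.
CDK8: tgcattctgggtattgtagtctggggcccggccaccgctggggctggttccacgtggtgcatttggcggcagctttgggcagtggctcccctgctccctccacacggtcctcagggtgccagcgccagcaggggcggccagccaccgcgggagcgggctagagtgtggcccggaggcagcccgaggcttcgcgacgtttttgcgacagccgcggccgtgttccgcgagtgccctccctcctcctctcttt
CDK19: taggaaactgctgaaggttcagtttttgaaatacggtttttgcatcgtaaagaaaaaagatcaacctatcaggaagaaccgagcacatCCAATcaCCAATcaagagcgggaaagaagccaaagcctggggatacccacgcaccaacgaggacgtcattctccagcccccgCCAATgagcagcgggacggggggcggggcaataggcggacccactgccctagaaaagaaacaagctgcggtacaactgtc
MED17: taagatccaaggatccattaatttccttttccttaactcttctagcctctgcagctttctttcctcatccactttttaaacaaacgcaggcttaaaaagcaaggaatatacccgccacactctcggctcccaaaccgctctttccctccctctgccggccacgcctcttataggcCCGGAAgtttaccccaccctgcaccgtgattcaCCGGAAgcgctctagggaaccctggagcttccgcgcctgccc
MED10: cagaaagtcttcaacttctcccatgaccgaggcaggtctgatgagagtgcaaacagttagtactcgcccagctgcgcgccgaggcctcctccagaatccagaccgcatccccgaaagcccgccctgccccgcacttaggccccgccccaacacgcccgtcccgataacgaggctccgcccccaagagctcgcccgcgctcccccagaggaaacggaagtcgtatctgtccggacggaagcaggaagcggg

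The motifs searched, on both strands, were the SOX cores ACAATG and ACAAAG, the NF-Y box CCAAT and CCGGAA, an extended form of the ETS core GGAA. TCF/LEF factors also bind sites that hold ACAAAG. No searched motif lies in the CDK8 or the MED10 window. The shorter GGAA was not searched, and the printed letters of both windows hold it, in the CDK8 window as TTCC. The CDK19 window holds CCAAT 80, 155 and 162 bases before the start, and the MED17 window holds CCGGAA 42 and 75 bases before it. Of 27305 promoters of this length, 1 per gene, 21.4% hold either SOX core, 33.0% CCAAT and 14.8% CCGGAA. Of the 25 Mediator genes with a promoter in that table, which include MED25, 4 hold either SOX core (CCNC, MED19, MED24 and MED27), 10 CCAAT and 7 CCGGAA. CDK8 is thus not among the Mediator genes with a SOX core in this window, and a window without these letters says nothing of binding elsewhere.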

How the data were processed

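MKN28 RNA was measured on 2 arrays, 1 labelled Sox2 and 1 control. The deposited intensities are linear, with 1 value per probe set; per the submitters' processing notes RMA was used, and its settings and any later step are not given. Values were taken to log2 without further scaling. Genes were named from the platform annotation, with symbols updated through gene IDs to RefSeq (19735 of 19777 matched), using 41091 probe sets that name 1 gene. Each gene took the probe set of highest mean log2 intensity, and passed the filter when its higher value reached 34.25. Genes were counted at 2-fold and at 1.5-fold, with no p-value. Every Mediator gene was named, with all probe sets of the kinase module and of genes at 1.5-fold or more; of other lists, up to 4 genes at 2-fold were named. G3BP2, RBMS1, the CDK8 neighbours and the cell type markers were named after their values were seen. The members and lists were chosen with earlier results of these data known. Counting and lowess centring were run on simulated differences with the same spread at every level, unlike the measured ones, which widen toward bright levels. Quantile normalization was run on the measured arrays. These runs check the code and not the counts. Python 3.11.15, numpy 2.4.6, pandas 2.3.3, SciPy 1.17.1, statsmodels 0.14.6 (lowess span 0.3) and matplotlib 3.10.9 were used. With so few arrays, precision is limited.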

Additional observations from a re-analysis of the deposited data

Results flagged for a closer look

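A probe set left out of the gene values because it names MIR6884 together with MED24, a tail subunit, read 53.3 in the Sox2-labelled array and 40.2 in the control-labelled array. It was picked out because no gene value uses it, though it was read on the same arrays, and it lay above the level in the control. Its log2 difference of 0.41 stands beside 0.33 for the probe set that names MED24 alone.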

How the results depend on the processing

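CDK8 was the 1 Mediator gene at least 2-fold higher, and none was lower, under each alternative except scaling on the spike-ins and the 1.5-fold threshold; its log2 difference lay between 1.58 and 2.40 over 9 alternatives. At 1.5-fold, 4 were higher and 1 lower. Scaling on the poly-A spike-ins counted 10 as higher and gave medians of 0.91 for Mediator, 0.89 for the kinase module and 0.92 for the core, since it moves the median of all genes to 0.75. Averaging probe sets gave 0.032, 0.43 and -0.0052 for those medians, and the probe set with the largest difference 0.27, 0.75 and 0.047, with 3 kinase module genes left in each. Without a filter the medians were 0.098 for Mediator and 0.087 for the core. With _x_at and _s_at probe sets left out, MED17 gave -0.24, MED8 -0.21, MED28 -0.38, MED7 0.11 and MED12 0.14. That setting, the 75th percentile filter, lowess centring, quantile normalization and removal of the length trend moved the medians by less than the technical SD over the square root of the number of genes. Spike-in scaling aside, 11 of 181 values of single Mediator genes moved by at least the technical SD and 10 changed sign, mostly near 0. Over all genes, 292 were counted as higher and 92 as lower, against 63 and 43 with averaged probe sets, 172 and 61 without those endings, 378 and 177 without a filter, 213 and 117 after quantile normalization and 2869 and 3 on the spike-ins. The causes were not tested. No paired analysis was possible because each group has 1 array. Dim members, under 34.25, limit what can be seen. That filter is the median of all values and was not tested as a line between expressed genes and background. CD3E, PECAM1 and VWF, markers of other cell types, also passed it, so passing does not show that a gene was expressed.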
